A study of Sus scrofa with 9 samples.

Results

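Genes of vasoactive peptides, of the enzymes that process them and of their receptors were examined in cultured endothelial cells of the pig coronary artery, the cells that line the vessel. The members were 10 named genes, EDN1, ECE1, EDNRA and EDNRB of the endothelin system, ACE and AGTR1 of the renin-angiotensin system, ADM and CALCRL of the adrenomedullin system, and NPPB and NPR3 of the natriuretic peptides. They were listed by name, with no threshold on a measured value, although earlier results of these data were known when the list was made. A probe set, the group of oligonucleotides that reports 1 transcript on an Affymetrix array, was taken for a member if the platform annotation gave it that gene symbol and no other. This gave 11 of the 24123 probe sets, for 9 of the 10 genes, ECE1 and EDNRB having 2 each. No probe set carried NPR3, the natriuretic peptide clearance receptor, as its only symbol, and NPR3 is not analysed here. Each of 9 arrays held the RNA of 1 sample, in 3 groups of 3. Passage 4 cells had been passaged weekly in vitro and are called senescent in the labels. Regenerated cells had regrown in vivo after denudation of the vessel, were scraped off and were cultured without passage. Passage 1 cells, grown from primary culture for 1 week, were the controls. All cells were collected at basal condition, and no pig genotype, strain or age is given in the labels. Nothing in the labels ties the 3 arrays of a group to different pigs or dishes, so each p-value reflects array-to-array spread that may be purely technical.

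Endothelium sets the tone of the underlying smooth muscle partly through secreted peptides. Endothelin-1 is cut from a precursor by endothelin-converting enzyme and constricts the vessel through the ETA receptor of smooth muscle, while the ETB receptor of endothelium couples to nitric oxide release and clears the peptide. Angiotensin-converting enzyme, bound to the endothelial surface, makes the constrictor angiotensin II and breaks down the dilator bradykinin. Adrenomedullin is a dilator peptide that acts on endothelium through the calcitonin receptor-like receptor together with a RAMP protein, and B-type natriuretic peptide, best known as a product of strained heart muscle, relaxes vessels through a receptor that makes cyclic GMP.

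Values are MAS5 signals, 1 brightness value per probe set on a linear scale. Their mean without the 2% lowest and highest probe sets lay between 500.1 and 500.12 in all 9 arrays, and their medians between 86.5 and 109. Differences are on the scale of log2(signal + 16), which understates changes of dim probe sets. Of 12 endothelial markers all had a probe set, and the brightest probe set of 10 was tested. The junction genes PECAM1 and CDH5 were bright in every array, PECAM1 with 7343 to 9079 in passage 4 arrays, 5520 to 7771 in regenerated arrays and 7126 to 8645 in passage 1 arrays, and CDH5 with 8524 to 9924, 8562 to 11246 and 9096 to 10855 in the same order of groups. Among the 10, NOS3, the endothelial nitric oxide synthase, fell in passage 4 against passage 1 cells (-0.97, limma adjusted p = 0.045), and CLDN5, a tight junction gene, fell in regenerated against passage 1 cells (-1.62, adjusted p = 0.0134). A second CDH5 probe set stood between 2706 and 3311 in passage 4 arrays, at 1845, 339 and 293 in regenerated arrays and between 1633 and 1915 in passage 1 arrays, and was higher in passage 4 than in regenerated cells (2.31, adjusted p = 0.0139). So was a second PECAM1 probe set (1.42, adjusted p = 0.0061). It ran from 4009 to 4806 in passage 4 arrays, from 1241 to 2378 in regenerated arrays and from 2944 to 4984 in passage 1 arrays. KDR and VWF, both defining genes of endothelium, were dim. Their brightest probe sets were not tested, and a second VWF probe set, at 89.8 or less in every array, was tested and did not pass in any comparison (adjusted p from 0.141 to 0.694). All 5 leukocyte markers with a probe set were too dim to be tested. Of 8 fibroblast markers 6 had a probe set and 5 were tested, and 3 of these, FAP, THY1 and LUM, rose in regenerated cells against passage 1 cells. FAP exceeded the 40th percentile of its array, the brightness filter of the test, in regenerated arrays only. It was thus tested through the group where it was brightest, and its rise there is no independent finding. LUM exceeded that percentile in no passage 1 array and not in regenerated array 2, so its rise is no independent finding either. The summed signal of the 6 ran from 498 to 639 in passage 4 arrays, from 1270 to 2139 in regenerated arrays and from 278 to 348 in passage 1 arrays. The summed signal of 6 smooth muscle markers ran from 7122 to 22236 in passage 4 arrays, from 20242 to 30623 in regenerated arrays and from 8685 to 24354 in passage 1 arrays, and that of 2 pericyte markers from 109 to 159, 101 to 270 and 65.6 to 111. Labelling differed as well. For dap and thr, bacterial transcripts spiked into each labelling, the log2 difference between 5' and 3' probe sets lay between -2.12 and -1.78 in the passage 4 arrays, between -5.29 and -4.68 in the regenerated arrays and, among passage 1 arrays, at -2.03 in array 1 and at -5.49 and -4.57 in the others. This makes 2 kinds of array, and values with the kind as a block are given where a call depends on it. For Gapdh of the pig it was between 0.14 and 0.46 in passage 4 arrays, -0.02, -1.07 and -1.52 in regenerated arrays 1, 2 and 3, and between 0.19 and 0.25 in passage 1 arrays. Labelled RNA was made from 0.5 to 1 ug in the regenerated group and from 1 ug in the others, which cannot be told apart from the group.

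Of the 11 member probe sets 9 were bright enough to be tested, 1 for each of 9 genes, together with all other probe sets, 15299 in all. The test was limma with Benjamini-Hochberg adjustment, and a member passed with an adjusted p under 0.05. Regenerated cells had less ADM and more NPPB transcript than passage 1 cells, and the other 7 tested members did not pass. These 2 of 9 calls, 1 in each direction, stand beside 5.49% of all tested probe sets called in that comparison, 2.98% higher and 2.51% lower. Against regenerated cells, passage 4 cells had more ADM, more ECE1 and less NPPB transcript. These 3 of 9 calls, 2 higher and 1 lower, stand beside 12.5% of all tested probe sets, 8.14% higher and 4.35% lower. Between passage 4 and passage 1 cells 0 of 9 members passed in limma, and 0 had an unadjusted p under 0.05, beside 4.79% of probe sets called, 2.71% higher and 2.08% lower. In passage 4 against passage 1 cells the groups did not overlap for 2 of 9 members, 1 higher and 1 lower, beside 24.9% of all tested probe sets, 15.3% higher and 9.61% lower. In regenerated against passage 1 cells they did not overlap for 4 of 9, 1 higher and 3 lower, beside 23%, of which 12.3% were higher and 10.8% lower. In passage 4 against regenerated cells they did not overlap for 4 of 9, 2 higher and 2 lower, beside 36.2%, of which 20.1% were higher and 16.1% lower. With 9 members, these counts are too small to set them apart from other probe sets. The median log2 difference of the 9 tested members was -0.03, 0.20 and -0.12 in these 3 comparisons, and that of all tested probe sets 0.04, -0.01 and 0.01. The comparisons share arrays and are not independent of each other.

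**Figure D1:**
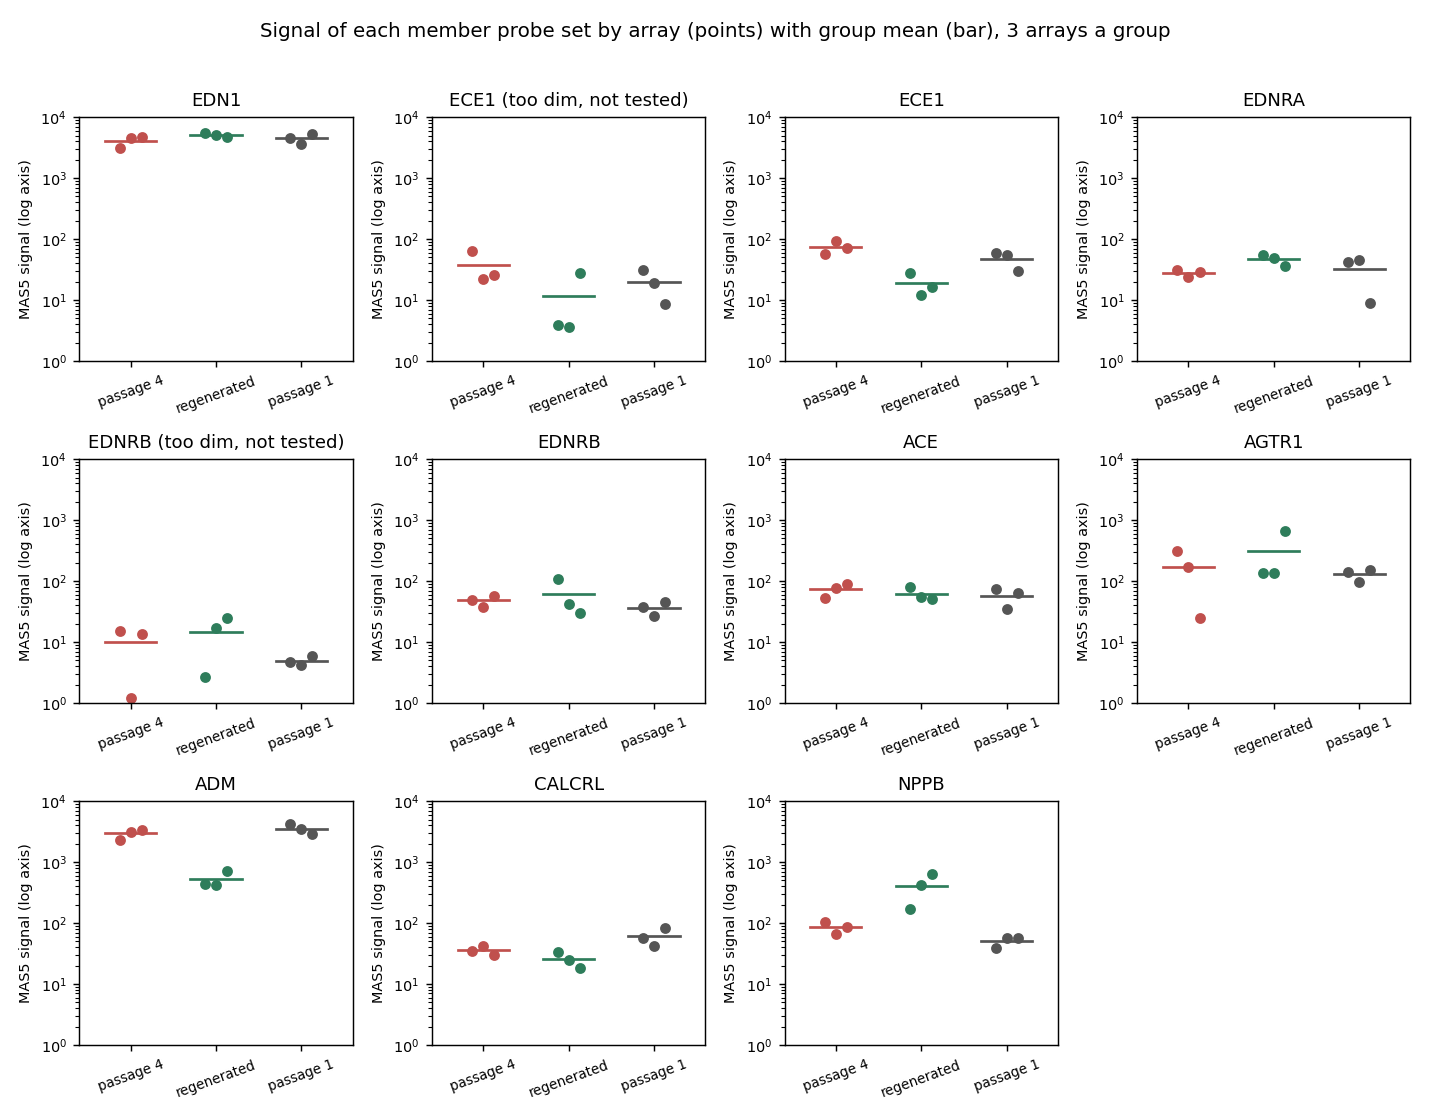
MAS5 signal (log axis) of each of the 11 member probe sets in the 9 arrays, with 1 point per array and a bar at the mean of each group of 3. ADM lies between 418 and 720 in regenerated arrays, below all other arrays, and NPPB lies between 173 and 631 there, above all others, while EDN1 stays between 3136 and 5582 in every group.

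Among the peptides, ADM, the gene of the dilator adrenomedullin, was lower in regenerated cells than in both other groups. Its signal was 437, 418 and 720 in the 3 regenerated arrays, against 4199, 3540 and 2930 in the passage 1 arrays. Every regenerated array lay far below every passage 1 array. The means were 525 ± 169 in regenerated cells and 3556 ± 635 in passage 1 cells (SD, n = 3 each), and the mean was 6.77 times as high in passage 1 cells. The log2 difference was -2.75 (SE 0.24, 95% interval -3.27 to -2.23, limma adjusted p = 0.00022), the 20th lowest of the 15299 probe sets tested. As in any bulk sample, fewer expressing cells and less transcript per cell cannot be told apart. With the kind of labelling as a block the difference was -2.62 (adjusted p = 0.000831). ADM has 1 probe set, so no other probe set checks it, and the position of its probes along the transcript is not used here. Passage 1 arrays 2 and 3, with ADM at 3540 and 2930, were of the same kind of labelling as the regenerated arrays. The Gapdh difference and the summed fibroblast signal given above did set the regenerated arrays apart from all others. For pig actin the same 5' to 3' difference did not, with -1.66 in regenerated array 1 and -1.72 in passage 1 array 2. For the pig control ef1a it did, from -2.26 to -0.93 in regenerated arrays and from -0.80 to 0.26 in the others. The part of these measures in the ADM result was not tested.

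Passage 4 cells kept a high ADM signal, with 2333, 3133 and 3379 in the 3 arrays. Their range overlapped that of passage 1 cells. The mean was 2948 ± 547 in passage 4 cells and 3556 ± 635 in passage 1 cells (SD, n = 3 each), a log2 difference of -0.27 with a 95% interval from -0.79 to 0.25 (adjusted p = 0.598). Against regenerated cells, passage 4 cells were higher by 2.48 (SE 0.24, adjusted p = 0.000383), with all 3 arrays above all 3 regenerated arrays. With the kind of labelling as a block that difference was 2.10 (SE 0.41) and its adjusted p 0.066, so the call was lost there. No kind of array holds both of these groups, and the blocked value runs through the passage 1 arrays.

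NPPB, the gene of B-type natriuretic peptide, moved the other way in regenerated cells. Its signal was 173, 423 and 631 in the 3 regenerated arrays, against 39.7, 57.6 and 56.9 in the passage 1 arrays. The lowest regenerated array stood above the highest passage 1 array, and the regenerated arrays spread widely among themselves. The means were 409 ± 229 and 51.4 ± 10.1 (SD, n = 3 each), a ratio of 7.96. The log2 difference was 2.50 (SE 0.39, 95% interval 1.64 to 3.36, limma adjusted p = 0.0047), the 45th highest of the probe sets tested, and 2.36 with the kind of labelling as a block (adjusted p = 0.0139). In passage 1 arrays NPPB was dim, below the array's own 40th percentile of 47.1 in array 1 and above those of 37.2 and 41.9 in the other arrays.

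Passage 4 cells had an intermediate NPPB signal of 105, 66.1 and 86.4. All 3 arrays lay above the 3 passage 1 arrays and below the 3 regenerated arrays. The log2 difference was 0.59 against passage 1 cells (95% interval -0.27 to 1.45, adjusted p = 0.468), which did not pass. It was -1.91 against regenerated cells (SE 0.39, adjusted p = 0.0102), which passed, but was -1.51 and did not pass with the kind of labelling as a block (SE 0.71, adjusted p = 0.292). Some other measures also differed in the regenerated arrays. Among the regenerated arrays, NPPB was lowest in array 1, where the Gapdh difference was -0.02, and highest in array 3, where it was -1.52. The fibroblast markers FAP, a cell surface protease, and THY1, a surface glycoprotein, stood at 267, 484 and 315 and at 336, 558 and 573 in regenerated arrays 1 to 3, against at most 37.4 and 89.7 in passage 1 arrays. The smooth muscle actin gene ACTA2 was at 10021 or more in all regenerated arrays, against 196 to 13189 in passage 1 arrays. It did not pass between these groups (limma adjusted p = 0.232). Of the other fibroblast and smooth muscle markers tested, LUM and SMTN passed there, at 3.50 and 0.89. COL1A2, DCN, TAGLN and CNN1 did not, at 0.08, 0.23, -0.04 and 1.49. LUM was uneven, at 660, 30.1 and 1014 in regenerated arrays 1 to 3, against at most 17.9 in passage 1 arrays. The part of these measures and markers in the NPPB result was not tested.

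EDN1, the gene of endothelin-1, had a strong signal in all 9 arrays and passed in none of the comparisons. It stood at 3136, 4481 and 4777 in passage 4 arrays, at 5582, 5116 and 4671 in regenerated arrays and at 4616, 3635 and 5271 in passage 1 arrays. All groups overlapped each other. The log2 difference was -0.13 for passage 4 against passage 1 cells (95% interval -0.55 to 0.28, adjusted p = 0.767). It was 0.20 for regenerated against passage 1 cells (-0.22 to 0.61, adjusted p = 0.584) and -0.33 for passage 4 against regenerated cells (-0.74 to 0.09, adjusted p = 0.28). Differences within these intervals could not be resolved with 3 arrays a group.

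**Figure D2:**
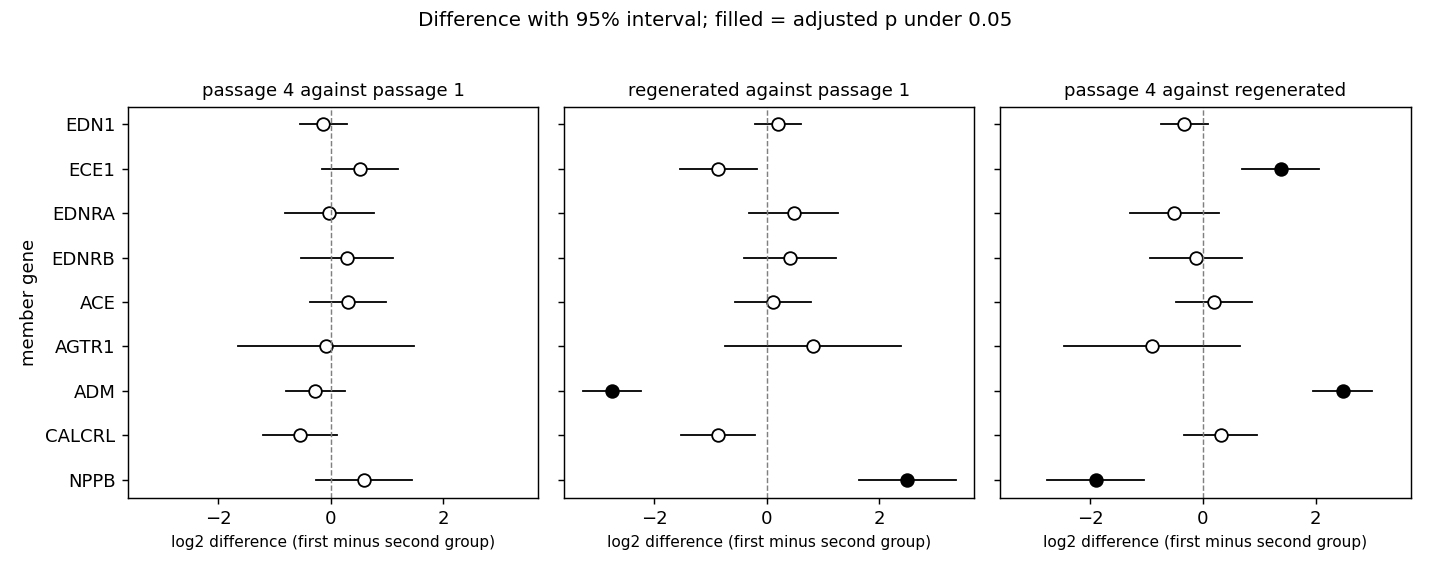
Log2 differences of the 9 tested member genes in 3 panels, 1 for each comparison, with 95% intervals, on the log2(signal + 16) scale and with filled points for an adjusted p under 0.05. Filled points are ADM at -2.75 and NPPB at 2.50 for regenerated against passage 1 cells, and ADM at 2.48, NPPB at -1.91 and ECE1 at 1.38 for passage 4 against regenerated cells.

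Of the processing enzymes, ECE1 encodes endothelin-converting enzyme, which releases endothelin-1 from its precursor. Its tested probe set stood at 57.9, 92.1 and 72.2 in passage 4 arrays, at 27.6, 12.3 and 16.2 in regenerated arrays and at 59.1, 54.0 and 29.6 in passage 1 arrays. All passage 4 arrays lay above all regenerated arrays, and passage 1 arrays overlapped with passage 4 arrays only. The log2 difference of passage 4 against regenerated cells was 1.38 (SE 0.31, limma adjusted p = 0.0149), with means of 74.1 ± 17.2 and 18.7 ± 7.97 (SD, n = 3 each). Against passage 1 cells it was 0.52 for passage 4 cells (95% interval -0.16 to 1.20, adjusted p = 0.411) and -0.86 for regenerated cells (-1.55 to -0.18, adjusted p = 0.129), and neither passed. All 3 regenerated arrays were below their own 40th percentile for this probe set, so it entered the test through the passage 4 and passage 1 arrays. Its lower values in regenerated cells are thus no independent finding. The call was lost with the kind of labelling as a block (0.97, adjusted p = 0.376). It was also lost without passage 4 array 2 or 3 (1.24 and 1.39) and without regenerated array 2 or 3 (1.25 and 1.34), with adjusted p between 0.0525 and 0.0657. The other ECE1 probe set, too dim to be tested, had 63.6, 22.1 and 26.2 in passage 4 arrays, 3.93, 3.56 and 27.7 in regenerated arrays, against 31.4, 19.1 and 8.58 in passage 1 arrays. Its groups overlapped.

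ACE, the gene of angiotensin-converting enzyme, had a low and even signal. It stood at 53.2, 76.7 and 89.9 in passage 4 arrays, at 80.3, 54.1 and 51.1 in regenerated arrays and at 73.1, 35.2 and 62.8 in passage 1 arrays. The groups overlapped throughout, and the log2 differences from passage 1 cells were 0.31 for passage 4 cells (95% interval -0.37 to 0.98, adjusted p = 0.65) and 0.11 for regenerated cells (-0.56 to 0.78, adjusted p = 0.868). Passage 4 cells differed from regenerated cells by 0.19 (-0.48 to 0.87, adjusted p = 0.726).

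The receptors were dim in these cells, apart from AGTR1. EDNRA encodes the ETA receptor, known chiefly from smooth muscle. It stood at 31.1, 24.1 and 28.7 in passage 4 arrays, at 55.7, 49.0 and 35.8 in regenerated arrays and at 41.8, 45.9 and 8.99 in passage 1 arrays. Passage 4 arrays lay below all regenerated arrays, while the wide passage 1 range, set by its array 3, overlapped both. No passage 4 array was above its own 40th percentile, so this probe set was tested through the other groups. The log2 difference of regenerated from passage 1 cells was 0.48 (95% interval -0.31 to 1.27, adjusted p = 0.481), and that of passage 4 from regenerated cells -0.51 (-1.30 to 0.29, adjusted p = 0.393). Passage 4 and passage 1 cells differed by -0.03 (-0.82 to 0.76, adjusted p = 0.978). Without passage 1 array 3 these differences from passage 1 cells became 0.06 for regenerated and -0.45 for passage 4 cells, neither of which passed.

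EDNRB encodes the ETB receptor, which endothelium normally carries. Its tested probe set stood at 49.3, 38.1 and 57.9 in passage 4 arrays, at 110, 42.1 and 29.5 in regenerated arrays and at 38.0, 27.2 and 44.8 in passage 1 arrays. The groups overlapped, and the high regenerated mean of 60.6 ± 43.4 (SD, n = 3) came from its array 1, without which the difference from passage 1 cells was -0.02. The log2 differences were 0.29 for passage 4 against passage 1 cells (95% interval -0.52 to 1.11, adjusted p = 0.732), 0.41 for regenerated against passage 1 cells (-0.40 to 1.23, adjusted p = 0.558) and -0.12 for passage 4 against regenerated cells (-0.93 to 0.70, adjusted p = 0.87). The other EDNRB probe set was at 25.0 or less in every array and below the 40th percentile of each, so it gave no usable level.

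AGTR1, the gene of the angiotensin II type 1 receptor, was the most scattered member. It stood at 313, 170 and 24.4 in passage 4 arrays, at 138, 137 and 673 in regenerated arrays and at 140, 95.4 and 154 in passage 1 arrays. Single arrays stood apart, passage 4 array 3 low and regenerated array 3 high, and the groups overlapped. The log2 differences were -0.09 for passage 4 (95% interval -1.65 to 1.48, adjusted p = 0.964) and 0.82 for regenerated cells (-0.75 to 2.38, adjusted p = 0.544), each against passage 1 cells. They became 0.78 without passage 4 array 3 and 0.10 without regenerated array 3. Passage 4 cells differed from regenerated cells by -0.91 (-2.47 to 0.66, adjusted p = 0.444). These were the widest intervals among the tested members.

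CALCRL, the calcitonin receptor-like receptor through which adrenomedullin acts, was dim in all groups. It stood at 35.4, 41.8 and 29.8 in passage 4 arrays, at 34.1, 25.2 and 18.4 in regenerated arrays and at 57.4, 42.1 and 83.8 in passage 1 arrays. Both groups lay below all passage 1 arrays, by a narrow margin for passage 4 cells. The log2 differences from passage 1 cells were -0.55 for passage 4 cells (95% interval -1.20 to 0.11, adjusted p = 0.355) and -0.86 for regenerated cells (-1.52 to -0.21, adjusted p = 0.116), and neither passed. Passage 4 cells differed from regenerated cells by 0.31 (-0.34 to 0.97, adjusted p = 0.533). The 3 passage 1 arrays alone were above their own 40th percentile, so this probe set was tested through the group where it was brightest, and its lower values elsewhere are no independent finding.

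The further genes of these pathways were followed as a list of 65, of which 25 had a probe set and 15 a brightest probe set that was tested. Of the 15, 1 rose and 2 fell in passage 4 against passage 1 cells, 1 rose and 3 fell in regenerated against passage 1 cells, and 1 was higher and 0 lower in passage 4 than in regenerated cells. Over all tested probe sets the shares higher and lower were 2.71% and 2.08%, 2.98% and 2.51%, and 8.14% and 4.35% in these 3 comparisons. The medians of the 15 were 0.14, 0.04 and -0.03 on the log2 scale, beside 0.04, -0.01 and 0.01 for all tested probe sets. By system, 0 of 6 further endothelin genes had a probe set. Of the renin-angiotensin genes 2 were tested, and in limma 0 passed and 0 had an unadjusted p under 0.05 in any comparison, among them ATP6AP2, the prorenin receptor, with log2 differences of -0.17 for passage 4 and 0.04 for regenerated cells against passage 1 cells. Of the natriuretic peptide genes 2 were tested on their brightest probe set, and in limma 0 passed and 0 had an unadjusted p under 0.05 in any comparison.

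PAM, the enzyme that amidates peptides such as adrenomedullin to their active form, rose in both groups. It stood at 2474, 2934 and 2690 in passage 4 arrays, at 2652, 2310 and 2528 in regenerated arrays and at 1136, 991 and 1841 in passage 1 arrays. Neither group overlapped passage 1 cells. The log2 difference was 1.07 for passage 4 cells (SE 0.21, limma adjusted p = 0.0185) and 0.96 for regenerated cells (SE 0.21, adjusted p = 0.0253), each against passage 1 cells. With the kind of labelling as a block these were 1.23 (adjusted p = 0.0795) and 0.88 (adjusted p = 0.0544), and neither passed. The call of passage 4 cells was also lost without passage 1 array 2 (0.89) and passage 4 array 2 or 3 (1.01 and 1.07). That of regenerated cells was lost without passage 1 array 1 or 2 (0.88 and 0.78), without regenerated array 2 or 3 (1.01 and 0.95) and in a fit of the 2 groups alone (0.96). RAMP2, which pairs with CALCRL to form an adrenomedullin receptor, stood at 1014 ± 65.7 in passage 4 cells, 1487 ± 298 in regenerated cells and 1423 ± 711 in passage 1 cells (SD, n = 3 each), and did not pass in any comparison (adjusted p from 0.307 to 0.795). RAMP1 and RAMP3 were too dim to be tested. CALCB, a gene of calcitonin gene-related peptide, another ligand of CALCRL, stood at 2811, 648 and 459 in passage 4 arrays, at 112, 228 and 435 in regenerated arrays and at 407, 238 and 552 in passage 1 arrays. Passage 4 array 1 stood far above the rest, and the difference of passage 4 from regenerated cells, 2.00 with an adjusted p of 0.0545, did not pass.

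NPPA, the gene of atrial natriuretic peptide, was dim, at 37.0 ± 16.4 in passage 4 cells, 42.6 ± 13.1 in regenerated cells and 28.1 ± 10.6 in passage 1 cells (SD, n = 3 each), and did not pass (adjusted p from 0.498 to 0.785). NPR2, a guanylyl cyclase receptor that prefers C-type natriuretic peptide, stood at 840 ± 142 in passage 4 cells, 849 ± 63.4 in regenerated cells and 930 ± 73.5 in passage 1 cells on its brightest probe set, with adjusted p from 0.711 to 0.946. Its other probe set differed by 2.19 between passage 4 and regenerated cells (adjusted p = 0.0302), with regenerated means of 54.9 against 218 at passage 4. The 2 probe sets of NPR2 thus disagree.

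Downstream of these receptors, RGS2 and RGS4 encode regulators that shorten G protein signals. RGS2 stood at 1466, 2054 and 1909 in passage 4 arrays, at 1518, 1993 and 1887 in regenerated arrays and at 6808, 4013 and 4715 in passage 1 arrays. It fell by 1.49 on the log2 scale in passage 4 cells (SE 0.21, limma adjusted p = 0.00427) and by 1.49 in regenerated cells (SE 0.21, adjusted p = 0.00315), and every array of both groups lay below every passage 1 array. RGS4 stood at 45.2, 272 and 65.5 in passage 4 arrays, at 45.7, 118 and 327 in regenerated arrays and at 541, 939 and 1316 in passage 1 arrays. Its log2 differences were -2.98 (adjusted p = 0.0268) and -2.66 (adjusted p = 0.0377). Both RGS4 calls were lost without passage 1 array 2 (-2.93 and -2.61, adjusted p = 0.0931 and 0.0847) or 3 (-2.69 and -2.37, adjusted p = 0.0787 and 0.12). That of passage 4 cells was also lost without passage 4 array 1 or 3 (-2.54 and -2.75) and with the kind of labelling as a block (-2.30, adjusted p = 0.301). That of regenerated cells was also lost without regenerated array 1 or 2 (-2.06 and -2.62), with no filter and with no intensity trend. RGS2 passed in both comparisons under every alternative run. A second RGS2 probe set was at -0.55 for passage 4 cells (adjusted p = 0.247) and at -1.03 for regenerated cells (adjusted p = 0.035).

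NPY1R, the Y1 receptor of the constrictor neuropeptide Y, was nearly dark in regenerated cells. It stood at 131, 65.8 and 57.9 in passage 4 arrays, at 11.03, 5.18 and 1.20 in regenerated arrays and at 75.7, 91.8 and 18.6 in passage 1 arrays. Regenerated arrays lay below all others and below their own 40th percentile, so NPY1R was tested through the other groups. Its lower values in regenerated cells are thus no independent finding. The log2 difference was 2.17 for passage 4 against regenerated cells (SE 0.44, limma adjusted p = 0.0099), or 1.58 with the kind of labelling as a block (adjusted p = 0.319). For regenerated against passage 1 cells it was -1.71 (adjusted p = 0.047), a call lost in 12 of 17 alternatives, among them leaving out passage 1 array 1 or 2, any passage 4 array, or regenerated array 2 or 3. The adjusted p lay between 0.0126 and 0.152 over all of them.

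**Figure D3:**
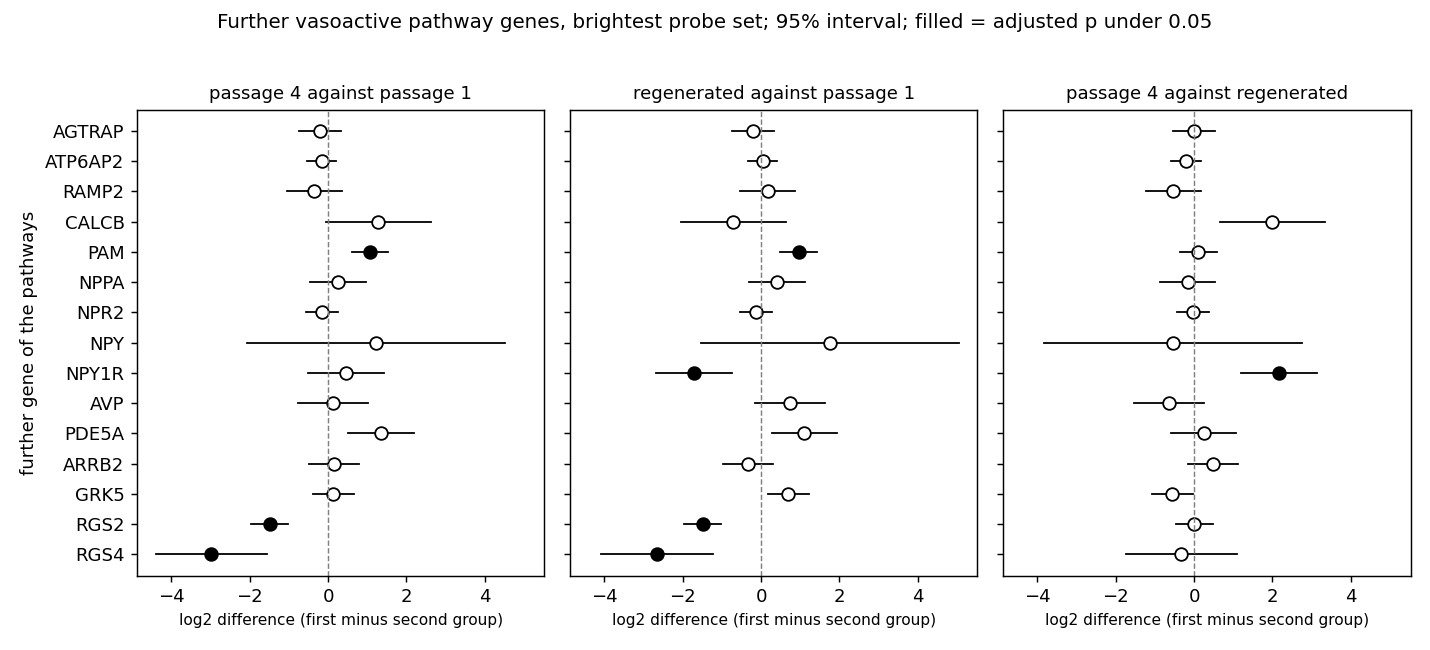
Log2 differences of the 15 further pathway genes tested, in 3 panels for the comparisons, with 95% intervals, on the log2(signal + 16) scale and with filled points for an adjusted p under 0.05. RGS2 and RGS4 lie below 0 and PAM above 0 in both comparisons with passage 1 cells. Between passage 4 and regenerated cells RGS2 and PAM lie near 0, and RGS4 lies at -0.325 with a wide interval from -1.74 to 1.09.

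The genes whose log2 signal ran most like that of a member over the 9 arrays were listed for the 4 members with the widest range of group means. For ADM these were PIM2, a kinase gene, CAV1, for the caveolar coat protein caveolin-1, and SHTN1, for a protein of axon guidance, with Pearson's r of 0.98, 0.97 and 0.97. CAV1 stood between 4359 and 5842 in passage 4 arrays, between 1000 and 1616 in regenerated arrays and between 5782 and 6644 in passage 1 arrays on that probe set. Its other probe sets were at -0.85 (adjusted p = 0.02) and -0.28 (adjusted p = 0.511) for regenerated against passage 1 cells, where the first was at -2.19, so the probe sets of 1 gene gave different sizes. The other SHTN1 probe set was lower as well in that comparison, at -1.51 (limma adjusted p = 0.00778), where the first was at -1.12. Outside these listed genes, a second PECAM1 probe set was also lower in regenerated than in passage 1 cells, at -1.14 (limma adjusted p = 0.0253), while the brightest PECAM1 probe set was at -0.19. The bearing of such differences between probe sets on the ADM result was not tested. For NPPB the most similar genes were PMM1, PDLIM5 and METRNL (r of 0.97, 0.96 and 0.96). For ECE1 they were APOBEC3B, GLO1 and KPNA1 (0.97, 0.96 and 0.95), and for AGTR1 TM4SF1, CLTC and FAM129C (0.93, 0.91 and 0.89). Each r belongs to 1 probe set of the gene. Between passage 4 and regenerated cells those of APOBEC3B, GLO1 and KPNA1 were at 0.99, 0.75 and 0.95. Their further tested probe sets were at 0.64 for APOBEC3B, 0.09 and -0.01 for GLO1, and 1.31, 0.15 and -0.10 for KPNA1. In the same comparison further probe sets of CLTC and TM4SF1 were at 2.38 and 0.88, where those most like AGTR1 were at -0.05 and -0.09. For regenerated against passage 1 cells further PDLIM5 probe sets were at 0.71, 0.27 and 0.10, where the one most like NPPB was at 0.49. The arrays share their group, kind of labelling and RNA input, and the r values describe likeness over 9 arrays only.

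**Figure D4:**
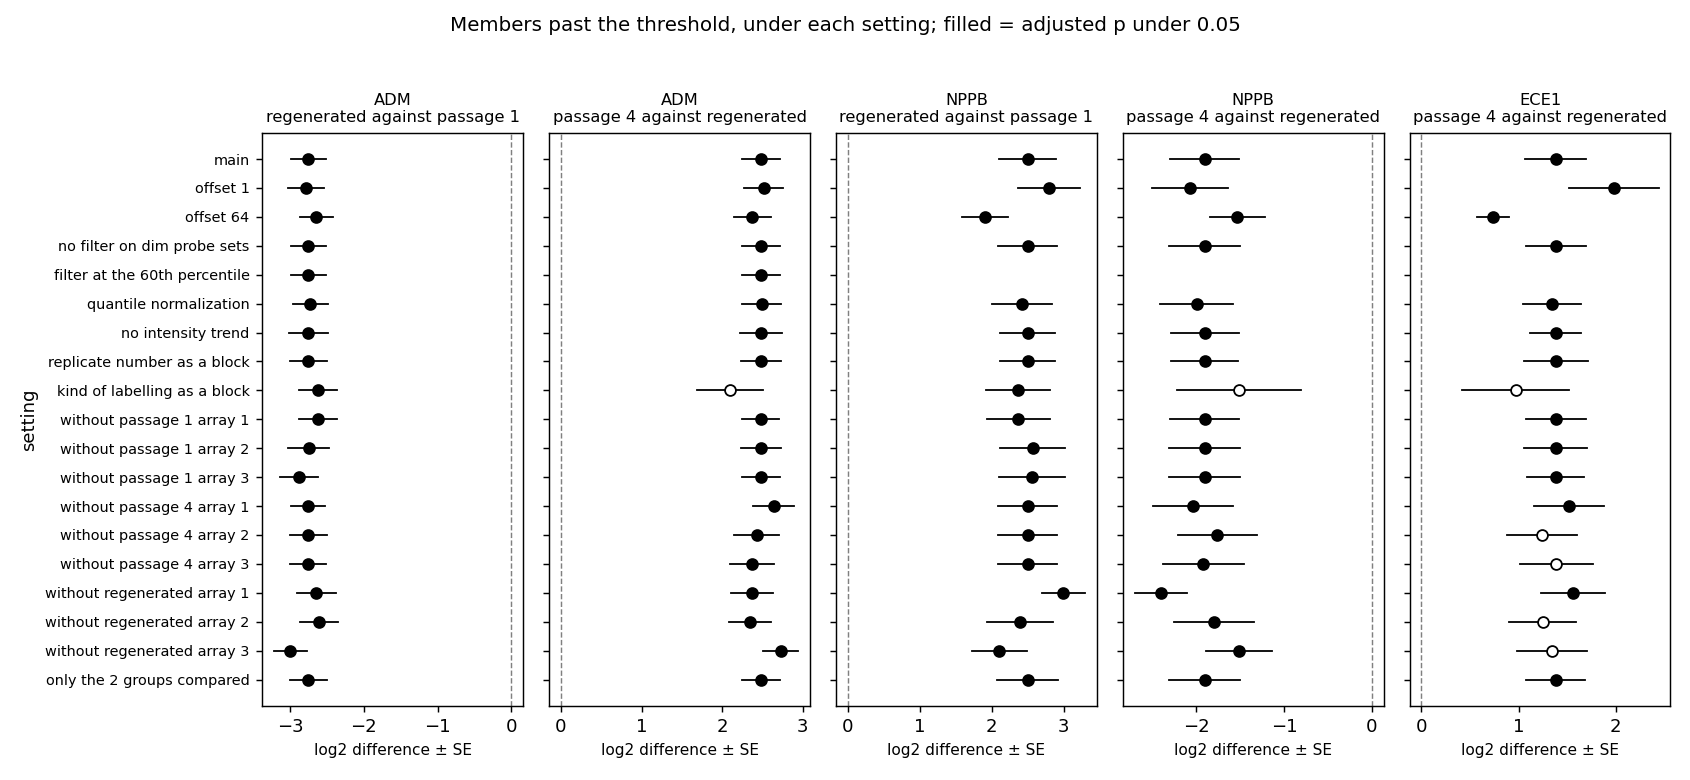
Log2 difference ± SE of ADM, NPPB and ECE1 in the comparisons in which they passed, under the main setting and each alternative, with filled points for an adjusted p under 0.05 and no point where the probe set was not tested. For regenerated against passage 1 cells every point is filled, from -2.99 to -2.61 for ADM and from 1.91 to 3.00 for NPPB, while the points of all 3 genes are open for passage 4 against regenerated cells with the kind of labelling as a block.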

How the data were processed

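The authors deposited probe set intensities of 9 arrays, named as MAS5 signals per the submitters' processing notes. Version and scaling target of MAS5 were not stated in those notes, and no detection calls were used. Trimmed means matched across arrays, so nothing further was normalized. The number of arrays limits the precision. Control probe sets (124) were left out, and the filter asked for a signal above the array's own 40th percentile in 3 or more of 9 arrays. All 15299 tested probe sets were fitted in limma 3.58.1 under R 4.3.3 on log2(signal + 16), with all 9 arrays, an intensity trend and two-sided tests, adjusted by Benjamini-Hochberg over each comparison. The fit had 6 residual and 5.65 prior degrees of freedom and was tested on simulated data. Exactly 1 gene symbol was annotated for 10099 probe sets, more than 1 for 198, and 13826 are unnamed here. Members, gene lists and the kind of labelling were chosen with earlier results of these data known. Named genes were all members, list genes past the threshold (at most 4 a comparison, brightest probe set), list genes that are a member's receptor, ligand or enzyme, and 3 most similar genes for 4 members. Further probe sets of CAV1, SHTN1, PECAM1, CDH5, VWF, RGS2, NPR2, APOBEC3B, GLO1, KPNA1, CLTC, TM4SF1 and PDLIM5 were added after their values were seen. Alternatives were the offset, the filter, quantile normalization, no trend, the 2 groups alone, blocks, and leaving out each array.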

Additional observations from a re-analysis of the deposited data

Results flagged for a closer look

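For 3 members the change of passage 4 cells and that of regenerated cells, each against passage 1 cells, differed in the test of passage 4 against regenerated cells. The difference was 2.48 for ADM, -1.91 for NPPB and 1.38 for ECE1 on the log2 scale. ECE1 was tested through the groups where it was brighter, so its difference is no independent finding. All 3 calls were lost with the kind of labelling as a block. No kind of array holds both passage 4 and regenerated cells, so the blocked values run through the passage 1 arrays, and the SE of ADM and NPPB was larger there.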

How the results depend on the processing

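Of 465 recomputed member differences over all alternatives, 458 kept their side of the threshold, 7 lost the call and 0 gained one or turned a called direction. The 7 were ECE1 in 5 settings, ADM and NPPB in 1 each, all for passage 4 against regenerated cells. The count of members past the threshold stayed at 0 for passage 4 against passage 1 cells. It was 1 in place of 2 for regenerated against passage 1 cells, and 1 in place of 3 for passage 4 against regenerated cells, with the filter at the 60th percentile, which left ADM and EDN1 alone of the members tested. It was 0 in place of 3 for passage 4 against regenerated cells with the kind of labelling as a block, and 2 to 3 with an array left out. For all probe sets, the kind of labelling as a block gave 150 in place of 733 for passage 4 against passage 1 cells and 35 in place of 1912 for passage 4 against regenerated cells. In the latter comparison no kind of array holds both groups, so the design itself makes the blocked differences less precise. Leaving out 1 array gave 244 (passage 1 array 2) to 1403 (passage 1 array 1) for passage 4 against passage 1 cells. It gave 895 (regenerated array 3) to 2406 for passage 4 against regenerated cells, and 291 (regenerated array 2) to 1238 in place of 840 for regenerated against passage 1 cells. A fit of the 2 groups alone gave 479 in place of 840. Beyond that feature of the design, the cause of these shifts was not tested. The deviations of same-numbered arrays from their group means had correlations from -0.14 to 0.19. With 3 arrays a group these values cannot decide whether the numbers pair samples. With the replicate block the members' counts were 0, 2 and 3 as before, and the 840 became 554. Of 213 recomputed differences of the further genes, chosen after seeing the data, 34 lost the call. Signal over background was a limit for several members. EDNRA, EDNRB and CALCRL were below the array's own 40th percentile in most arrays. The tested probe set of ECE1, a called member, was below it in all 3 regenerated arrays and in passage 1 array 3.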
